A study of Homo sapiens with 4 samples.

Results

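PTPRN2 is a gene of 1049 kb at the far end of the long arm of chromosome 7 (GRCh38, ending at position 158587823), and its open chromatin was described after octanoate treatment of A375, a human cell line established from melanoma. The locus was taken as every ATAC-seq region that overlapped the RefSeq span of PTPRN2 extended by 10 kb on both sides. These were 81 of the 125986 regions in the authors' deposited table. All 81 touched the gene span itself, so the margins added 0 regions. The other 301 regions of chromosome 7 from 154 Mb onwards served for comparison and are called the remaining distal 7q regions. The locus was selected on the fold change and adjusted p of a region in it, in this same table. Its fold changes are therefore given as a description, and no test of the locus was made from them.

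ATAC-seq uses the Tn5 transposase to cut and tag DNA that is not packed by nucleosomes, so that read counts report how accessible a region is. Cells grown in DMEM with serum were kept for 48 h with octanoate at 1 mM or with the solvent isopropanol (vehicle). Octanoate is a fatty acid of medium chain length. Each group had 2 libraries, and nothing in the labels says whether they came from separate cultures. The deposited table gives the mean normalized read count over all 4 libraries, the log2 fold change of octanoate over vehicle and its standard error, with no value for a single library. More cells with an open region and more cuts per cell cannot be told apart in such bulk libraries.

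PTPRN2 encodes phogrin, a protein that spans the membrane of dense-core vesicles, the storage granules of neuroendocrine and insulin-secreting cells. It belongs to the receptor-type tyrosine phosphatases, but its phosphatase domain has little activity towards phosphotyrosine, and it is known as an autoantigen in autoimmune diabetes. With its paralogue PTPRN it supports granule content and regulated secretion, and in metastatic breast cancer cells it has been tied to plasma membrane phosphoinositides and the actin-severing protein cofilin. The gene is transcribed from the minus strand, so its start site is at the higher coordinate, and an intron holds the microRNA gene MIR153-2.

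Most PTPRN2 regions had a positive log2 fold change. Of the 81, 70 lay above 0 and 11 below, which is 86.4% above 0 against 72.1% of all 125985 nuclear regions. Their median log2 fold change was 0.53, with quartiles of 0.32 and 0.83, and the median over all nuclear regions was 0.23. The remaining distal 7q regions had a median of 0.47, and 84.7% of them were above 0. The PTPRN2 median thus exceeded that of its chromosomal surroundings by 0.060 and that of all nuclear regions by 0.30. Because every library entered each of these values and none is given on its own, the differences have no replicate check.

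The table as a whole was shifted upwards, which bears on every value here. The 11185 regions that the authors' adjustment covered, called tested regions, were centred on a log2 value of 0.19. Relative to it the PTPRN2 median was 0.34 and that of the remaining distal 7q regions was 0.28. A scaling that removes the shift would lower all members by the same amount.

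A single PTPRN2 region was strong enough to be tested. It lies 1023 kb into the gene, near its 3′ end (chromosome 7, 157564509 to 157565634, 1126 bp wide), and it is 8.70 kb from MIR153-2. In the authors' deposited table its mean was 147 normalized reads, and the group levels implied by that mean and the fold change were 101 for vehicle and 194 for octanoate. The authors' deposited table put its log2 fold change at 0.95 (standard error 0.18), where DESeq2 gave an adjusted p of 0.000154. The octanoate level was thus close to a doubling of the vehicle level at this region. Across the table, 1.02% of tested regions passed an adjusted p under 0.05, 114 in all, and all 114 were higher with octanoate. The region had the seventh smallest p of the tested regions (rank 7) and the smallest p (rank 1) among the 382 regions of the distal 7q window, while 14 regions of that window were stronger by mean count (it was at rank 15). With the tested median subtracted its log2 fold change was 0.76 and its adjusted p 0.0342, and with the median of all nuclear regions subtracted they were 0.72 and 0.0914. The call was therefore lost under the second centring, which was chosen after the data were seen. Under the first centring 0.0536% of tested regions passed and under the second 0.0447%. The region also passed with adjustment over all regions, where 0.0198% did. Its adjusted p lies under limits of 0.1 (met by 2.98% of tested regions) and 0.01 (0.313%) as well. It did not pass when a doubling was required as well, a rule that 0.0983% of tested regions met.

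The remaining 80 PTPRN2 regions lay under the limit of testing. The lowest mean of a tested region was 63.8 normalized reads, while the strongest PTPRN2 region below that limit had 52.5. The share of regions tested was 1.23% in PTPRN2, 10.6% in the remaining distal 7q and 8.88% over all nuclear regions. The locus is nonetheless densely covered, with 7.58 regions per 100 kb, against 7.08 in the remaining distal 7q and 4.59 along the whole of chromosome 7. PTPRN2 regions had a median width of 400 bp (range 200 to 2544) and a median mean of 10.9 normalized reads (range 2.67 to 147). The remaining distal 7q regions were similar, with medians of 433 bp and 11.4 normalized reads. All nuclear regions had medians of 437 bp and 12.2 normalized reads. The called region alone held 11.7% of the summed mean count of the locus.

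**Figure D1:**
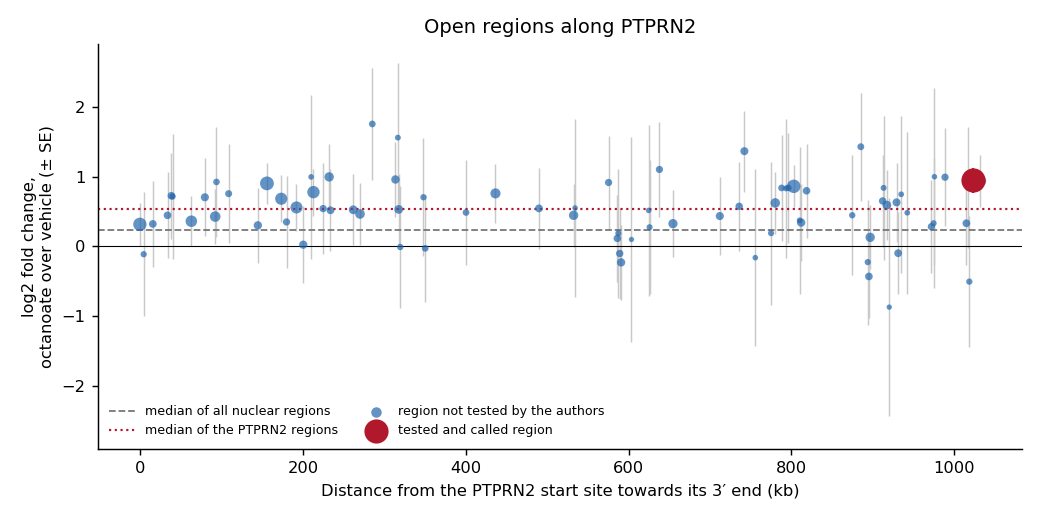
Log2 fold change of each of the 81 PTPRN2 regions (vertical axis, octanoate over vehicle, bars are the authors' standard errors) against its distance from the start site in kb, with point area growing with the mean normalized read count. The called region (red) stands near the 3′ end, and 70 of 81 points lie above 0 while the bars are shortest for the strongest regions.

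The start of PTPRN2 was open, and its difference between the groups was not resolved. A region of 1643 bp covers the start site (158587497 to 158589139) and was the fourth strongest of the locus (rank 4), with a mean of 48.4 normalized reads in the authors' deposited table. Its implied levels were 43.1 for vehicle and 53.7 for octanoate. The authors' deposited table put it at 0.32 on the log2 scale with a standard error of 0.31, so it was about the size of that error, and within 1.96 standard errors it included both 0 and the weighted mean of the locus, 0.60. It ranked 61 of 81 in the locus. Relative to the median of all nuclear regions the start region was at 0.087. No region lay within 1 kb of the 3′ end of the gene, and the promoter sequence of PTPRN2 is not printed here.

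Several regions in the body of the gene had implied octanoate levels well above the vehicle levels. The second strongest region of the locus, 156 kb into the gene (158431718 to 158432665), had implied levels of 36.6 for vehicle and 68.4 for octanoate, a log2 difference of 0.90 (standard error 0.30) by the authors' deposited table. The next by strength, 803 kb into the gene (157784041 to 157785528), had implied levels of 35.2 and 63.9, and the authors' deposited table put it at 0.86 (standard error 0.30). A neighbour of the called region, nearer the 3′ end (157555116 to 157555737), had implied levels of 23.6 and 45.1, and the authors' deposited table put it at 0.94 (standard error 0.37). In each of these 3 the fold change was more than 2 standard errors from 0, and the group levels were close to a doubling. They were chosen here after their values were seen.

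Among regions of at least the locus' median strength that had not been named for another reason, the 3 highest and the 3 lowest fold changes show the range. The highest was 742 kb into the gene (157845254 to 157845698), with implied levels of 7.81 for vehicle and 20.1 for octanoate, which the authors' deposited table put at 1.36 (standard error 0.58). The others were 1.00 (standard error 0.47), 232 kb into the gene, and 0.96 (standard error 0.53), 314 kb into the gene. The lowest lay 895 kb into the gene (157692043 to 157692906), at -0.43 (standard error 0.60) in the authors' deposited table, and its implied levels were 14.0 for vehicle and 10.4 for octanoate. The other low regions were at -0.23 (standard error 0.54) and -0.10 (standard error 0.59) in the authors' deposited table. None of the 3 low values exceeded its own standard error. The highest fold change of the whole locus, 1.75, belonged to a weak region with a mean of 8.04 and a standard error of 0.80.

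At an unadjusted p under 0.05 in the authors' deposited table, 9 of the 81 PTPRN2 regions were higher and 0 were lower. Over all nuclear regions 3.58% were higher and 0.179% lower by this rule. Among the remaining distal 7q regions the counts were 35 higher and 0 lower of 301. As shares these were 11.1% for PTPRN2 and 11.6% for its surroundings. With the tested median subtracted, 5 PTPRN2 regions were higher and 0 lower at an unadjusted p under 0.05, beside 1.08% higher over all nuclear regions. With the median of all nuclear regions subtracted the count was 3, beside 0.813%. Since these values chose the locus, nothing is read from the counts.

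The spread among PTPRN2 regions was no larger than their own errors. The mean log2 fold change weighted by the inverse squared standard error was 0.60, and all 81 regions had this value within 1.96 standard errors. Deviations from it, divided by the standard errors, had an SD of 0.668, against 0.774 for all nuclear regions around their own weighted mean. Within 1.96 standard errors 72 of the 81 regions also included 0, and 78 included the median of all nuclear regions. The implied counts summed over the locus were 1003 for vehicle and 1515 for octanoate, a log2 ratio of 0.60. Without the called region, on which the locus was selected, this ratio was 0.55. The same ratio was 0.41 for the remaining distal 7q and 0.21 for all nuclear regions.

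The weakest 27 regions had a median of 0.48 on the log2 scale and 21 were above 0. For the middle 27 the median was 0.54 with 23 above 0, and for the strongest 27 it was 0.53 with 26 above 0. Log2 fold changes ran from -0.87 to 1.56 in the weakest 27 and from -0.23 to 1.00 in the strongest 27. The remaining distal 7q regions in the same ranges of mean count had medians of 0.56 (96 regions), 0.40 (61) and 0.44 (109). PTPRN2 was thus below its surroundings among the weakest regions and above them in the other ranges. All nuclear regions in these ranges had medians of 0.29, 0.23 and 0.21. The share above 0 was also highest among the strongest regions elsewhere, with 66.0%, 70.2% and 77.1% over all nuclear regions and 81.2%, 80.3% and 89.0% in the remaining distal 7q. The median standard error fell from 1.00 in the weakest 27 to 0.45 in the strongest 27.

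**Figure D2:**
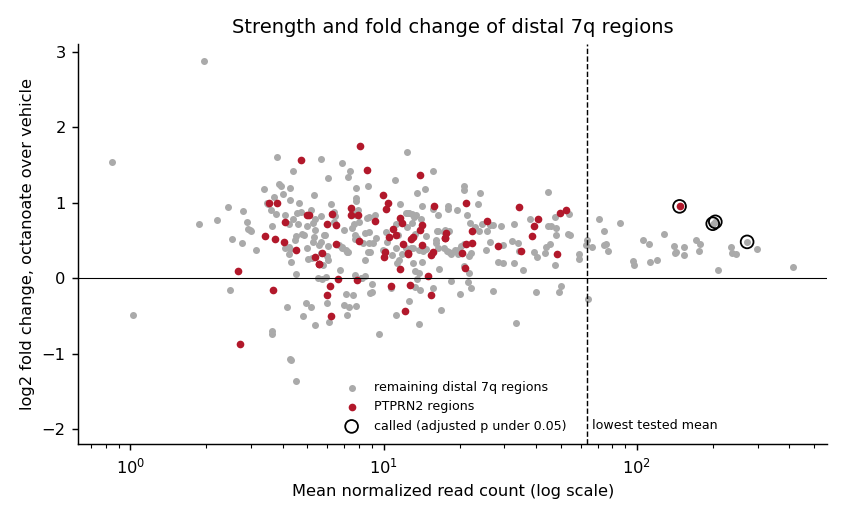
Log2 fold change (octanoate over vehicle) against the mean normalized read count on a log axis for the PTPRN2 regions (red) and the 301 remaining distal 7q regions (grey). Of the 81 PTPRN2 regions 1 lies to the right of the lowest tested mean (dashed line), against 32 of the 301 others, and circles mark the called regions.

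Positive fold changes ran along the whole gene. In the first 250 kb from the start site 20 of 21 regions were above 0, with a median of 0.56. The next stretches of 250 kb had medians of 0.54 (10 of 12 above 0), 0.43 (13 of 15) and 0.59 (22 of 27). The 5 regions more than 1000 kb into the gene, which include the called region, had a median of 0.84 with 4 above 0. The longest run of neighbours above the median of all nuclear regions held 14 regions, from 15.4 to 192 kb into the gene, with log2 fold changes of 0.30 to 0.92. The longest run below that median held 5 regions, from 586 to 604 kb into the gene (157984156 to 158001792), with log2 fold changes of -0.23 to 0.19 and standard errors of 0.54 to 1.47. These runs were picked after the values were seen.

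High values went on past the 3′ end of the gene. A group of 7 regions between 12.1 and 57.8 kb beyond it, outside the margin, had log2 fold changes of 0.60 to 1.58 with a median of 0.98, and 0 of them were below 0. Their means were 5.69 to 23.7 normalized reads, so 0 were tested. Their standard errors ran from 0.43 to 0.96, the largest belonging to the value of 1.58. In the remaining distal 7q, which includes these regions, 84.7% were above 0, and over all nuclear regions 72.1%. On the start side no further region was nearer to PTPRN2 than to another protein-coding gene.

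Noncoding genes inside PTPRN2 had few open regions of their own. MIR153-2, which gives rise to a neuronal microRNA, lay 1.37 kb from its nearest region, a weak one with a mean of 12.5, which the authors' deposited table put at 0.33 (standard error 0.60). The antisense transcript PTPRN2-AS1 overlapped 0 regions, and its nearest region, 2.52 kb away, was at 0.57 (standard error 0.64). The microRNA gene MIR595 lay 6.38 kb from its nearest region (0.36, standard error 0.36). Among the uncharacterised noncoding genes, LOC105375615 overlapped 2 regions, whose median was 0.66 on the log2 scale, and LOC105375614 and LOC124901793 overlapped 1 each, at 0.28 and 0.32. None of these differed from the locus median by more than its standard errors.

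Among 16 stretches of 10 Mb along chromosome 7, the last one, from 150 Mb, which includes PTPRN2, had the highest median log2 fold change, 0.42, and the next was at 0.29. Of the 67 tested regions in the last stretch 6 were called, of 11 called on the chromosome, beside 1.02% of all tested regions. Before 154 Mb the median of chromosome 7 was 0.22.

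Within the window PTPRN2 was neither the highest nor the lowest gene. Regions were given to the protein-coding gene they overlapped or, failing that, the nearest one. Of 18 other genes with at least 5 regions, 16 had a median above that of all nuclear regions, 6 had a median above PTPRN2 and 12 below. The highest was VIPR2, the receptor for vasoactive intestinal peptide and the last protein-coding gene of the arm, with a median of 0.71 over 27 regions. DPP6, a gene for an accessory subunit of voltage-gated potassium channels, had 0.64 over 48 regions, and 44 of these were above 0. The directly neighbouring genes were also high, with 0.63 over 13 regions for the chaperone gene DNAJB6 and 0.64 over 6 for the condensin subunit gene NCAPG2. The morphogen gene SHH, whose 45 regions lie mostly in the gene desert beside it, had 0.61. HTR5A had 0.60 over 10 regions. This order was not the same by weighted mean. VIPR2 was then at 0.52, DPP6 at 0.59, and DNAJB6 and NCAPG2 at 0.50, below the 0.60 of PTPRN2. HTR5A (0.62) and SHH (0.61) were above it. Without the called region PTPRN2 was at 0.56, which is below DPP6 as well. The lowest medians were those of NOM1, -0.18 over 7 regions, and RBM33, 0.21 over 15. By weighted mean both were above 0, at 0.071 (standard error 0.15) and 0.073 (standard error 0.10).

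The gap between PTPRN2 and its surroundings depended on the measure. The PTPRN2 value minus that of the remaining distal 7q was 0.060 by medians, 0.18 by weighted means and 0.18 by the log2 ratio of summed implied counts. The 18 remaining regions within 1 kb of a protein-coding start had a median of 0.37 on the log2 scale and a median mean of 131 normalized reads, while the other 283 had 0.48 and 11.1. The weighted mean of those 283 was 0.45, against 0.42 for all 301. The weighted and summed values include the called region that chose the locus. Without it PTPRN2 had a weighted mean of 0.56 and a log2 ratio of sums of 0.55, in place of 0.60 for both.

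**Figure D3:**
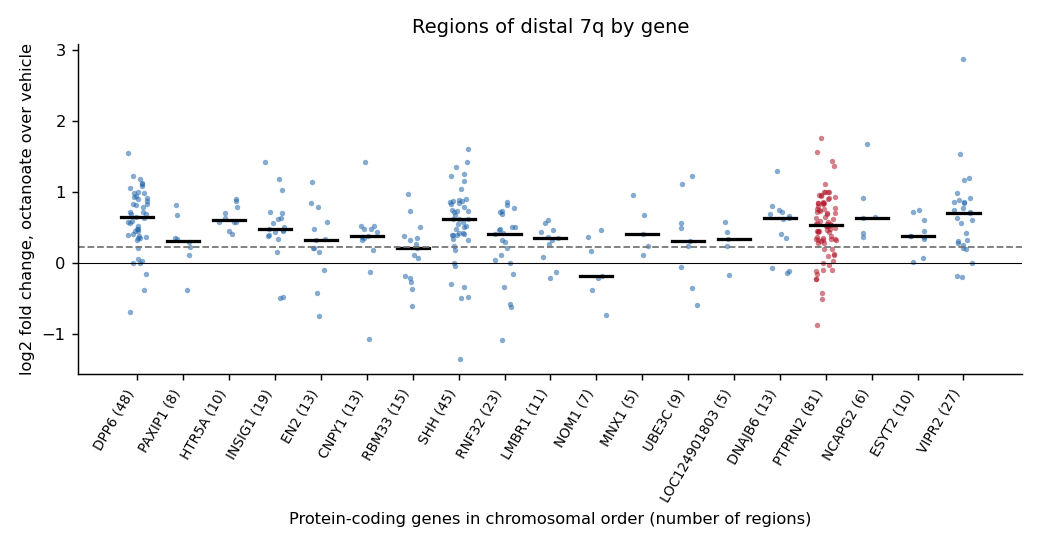
Log2 fold change (octanoate over vehicle) of distal 7q regions, 1 column per protein-coding gene with at least 5 regions, in chromosomal order. Black bars are at the gene medians, PTPRN2 is in red and the dashed line is at 0.23, the median of all nuclear regions. The 7 regions beyond the 3′ end of PTPRN2 and the genes with fewer than 5 regions are not shown. Medians of 16 of the 18 other genes lie above the dashed line, with NOM1 and RBM33 below it.

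Of the 32 tested regions of the remaining window 3 were called, beside 1.02% of all tested regions. Each of the 3 was stronger than the PTPRN2 region and had a smaller fold change. A region 138 kb from SHH (155950828 to 155952466) had implied levels of 153 for vehicle and 256 for octanoate, and the authors' deposited table put it at 0.74 (standard error 0.15, DESeq2 adjusted p 0.00122). A region inside ESYT2, the gene of a protein that tethers the endoplasmic reticulum to the plasma membrane (158739908 to 158741802), had implied levels of 151 and 248 and stood at 0.72 in the authors' deposited table (standard error 0.15, DESeq2 adjusted p 0.00147). The last, 90.9 kb from INSIG1, a regulator of sterol synthesis (155205144 to 155207019), had implied levels of 228 and 317 and stood at 0.48 in the authors' deposited table (standard error 0.13, DESeq2 adjusted p 0.0344). With the tested median subtracted, their DESeq2-based adjusted p were 0.20, 0.22 and 1, against 0.0342 for the PTPRN2 region, on whose values the locus was selected. With the median of all nuclear regions subtracted, 0 of the 4 called regions of the window kept an adjusted p under 0.05 (DESeq2-based).

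The SHH-side and INSIG1-side regions each cover the annotated start of a long noncoding RNA, which gives the only start sequences held here for called regions of the window. They are shown as RefSeq GRCh38.p14 windows from 250 bases before to 50 after the start, both on the plus strand, with capitals at matches to CACGTG (the E-box core), TGANTCA (the AP-1 site) or GGAATG (the TEAD site), searched on both strands.

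LOC124901788, chr7:155951035-155951334: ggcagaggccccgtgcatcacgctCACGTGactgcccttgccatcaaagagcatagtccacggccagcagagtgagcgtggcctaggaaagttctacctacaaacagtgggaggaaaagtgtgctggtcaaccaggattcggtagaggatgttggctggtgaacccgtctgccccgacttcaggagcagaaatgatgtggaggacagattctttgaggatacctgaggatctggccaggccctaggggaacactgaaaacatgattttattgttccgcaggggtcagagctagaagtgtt

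LOC124901783, chr7:155205454-155205753: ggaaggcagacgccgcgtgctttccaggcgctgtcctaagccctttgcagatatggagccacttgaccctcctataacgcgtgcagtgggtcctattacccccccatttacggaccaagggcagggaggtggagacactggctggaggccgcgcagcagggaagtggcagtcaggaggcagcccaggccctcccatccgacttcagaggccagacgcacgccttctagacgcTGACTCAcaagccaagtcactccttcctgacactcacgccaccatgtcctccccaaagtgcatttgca

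The LOC124901788 window held 1 E-box core and the LOC124901783 window 1 AP-1 site, and neither held a TEAD site. Of 35116 windows of the same length, 7.26% held CACGTG, 7.71% TGANTCA and 14.0% GGAATG, so such matches are common. The windows were 53.7% and 60.7% G or C, with 9 and 14 CpG pairs.

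PTPRN2 also ranked high among genes that hold many regions. At least 41 regions fell on 108 protein-coding genes with 10 kb margins, and PTPRN2 was at rank 3 by median log2 fold change, at rank 2 by weighted mean and at rank 6 by the share of regions above 0. Since PTPRN2 was selected on a high region in this same comparison, its ranks are a description only. Its weighted mean was 0.56 without that region, in place of 0.60. Of the 108 genes, 7 had more regions than PTPRN2. DPP6, from the same chromosome arm, was at rank 1 by each of the 3 measures (median 0.63 over 53 regions, 92.5% above 0, 0 tested). Among the 108 genes, the 45 others longer than 1000 kb had medians from 0.0070 to 0.63, and the median of these was 0.25. Long genes with fewer than 41 regions are not in this count.

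The 5 genes with the median nearest to that of PTPRN2, over this 1 comparison of 4 libraries, were MYT1L (0.52 over 62 regions), TMEM132D (0.50 over 44), SMYD3 (0.50 over 55), NAALADL2 (0.56 over 47) and CTNNA2 (0.49 over 42). MYT1L is a neuronal transcription factor gene, SMYD3 encodes a lysine methyltransferase and CTNNA2 a neuronal catenin. The authors tested 6 regions of SMYD3, 2 of TMEM132D, 1 of NAALADL2 and 0 of MYT1L and CTNNA2, and 0 were called (DESeq2, 1.02% of all tested regions). MYT1L, TMEM132D and SMYD3 lie 1.78, 3.28 and 2.44 Mb from the outermost region of their chromosome, while NAALADL2 and CTNNA2 lie 22.4 and 79.2 Mb from it. PTPRN2 lies 0.730 Mb from the last region of chromosome 7. Among the 108 genes, the 13 others within 5 Mb had a median of medians of 0.42, against 0.26 for the 94 farther away.

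**Figure D4:**
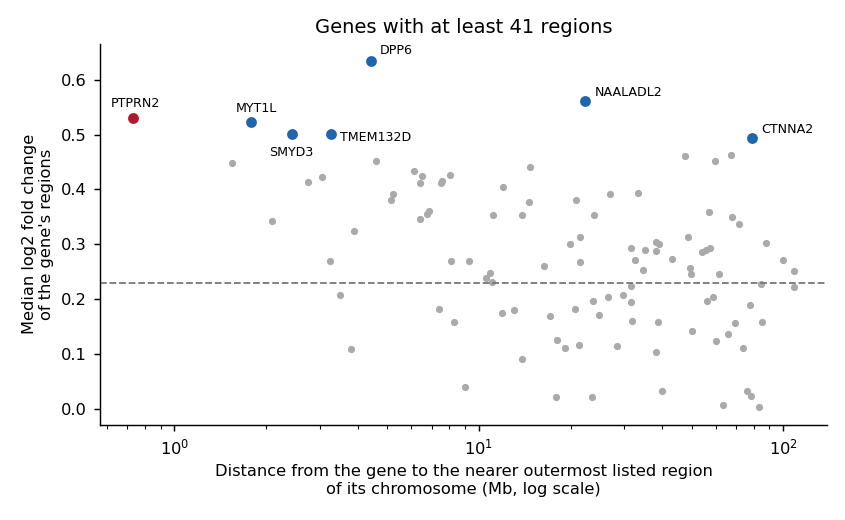
Median log2 fold change (octanoate over vehicle) of the 108 genes with at least 41 regions against the distance in Mb, on a log axis, from the gene to the nearer outermost listed region of its chromosome. PTPRN2 (red) is the leftmost gene at 0.53, DPP6 and the 5 genes of most similar median are in blue, and the dashed line marks the median of all nuclear regions.

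The receptor-type tyrosine phosphatase genes as a group did not share the PTPRN2 level. The 19 genes other than PTPRN2 held 343 regions whose log2 fold changes had a median of 0.19, and 69.4% of these were above 0, against 0.23 and 72.1% over all nuclear regions. Of their 22 tested regions 0 passed the authors' adjusted p (DESeq2; 1.02% passed among all tested regions), and at an unadjusted p under 0.05 13 regions were higher (3.79%, near the 3.58% of all nuclear regions) and 0 lower. Of 17 with at least 5 regions, 5 had a median above that of all nuclear regions. PTPRH, with 0.58 over 7 regions, was the 1 gene above PTPRN2. PTPRT followed with 0.49 over 12 regions and PTPRE with 0.47 over 21. PTPRD, a neuronal adhesion receptor gene of 2299 kb and thus the longest of the family, had 71 regions with a median of 0.16, of which 44 were above 0.

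PTPRN, the paralogue of PTPRN2 and the other phosphatase-like protein of dense-core vesicles, had 6 regions around a median log2 value of 0.40, and 5 were above 0. Its region next to a start site (chromosome 2, 219308156 to 219308959) had a mean of 21.2 and implied levels of 15.9 for vehicle and 26.5 for octanoate. Its fold change of 0.74 on the log2 scale (standard error 0.47) was not tested by the authors. The 1 tested region of this span, at its far margin, had 0.35 with a standard error of 0.22.

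**Figure D5:**
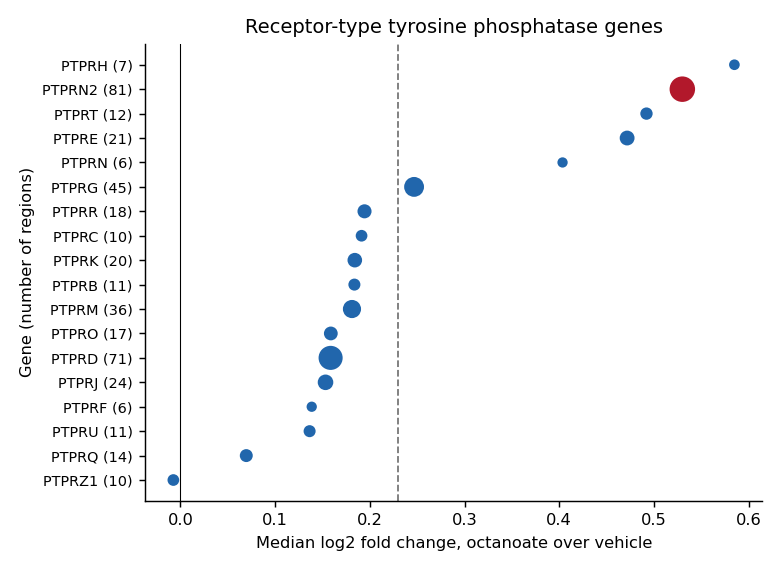
Median log2 fold change (octanoate over vehicle) of each receptor-type tyrosine phosphatase gene with at least 5 regions, with point area growing with the number of regions given in brackets. PTPRN2 (red) stands second, after PTPRH with 7 regions, and 12 of the 17 others lie below the dashed median of all nuclear regions.

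Genes of dense-core vesicles and regulated secretion had values near those of all regions. Their 32 genes held 277 regions whose log2 fold changes had a median of 0.21, and 70.0% were above 0. Of 26 tested regions 0 passed the authors' adjusted p (DESeq2), where 1.02% of all tested regions did. At an unadjusted p under 0.05, 5 regions were higher (1.81%) and 2 lower (0.722%), beside 3.58% and 0.179% of all nuclear regions. Of 19 genes with at least 5 regions, 10 had a median above that of all nuclear regions, from -0.14 for RAB2A, a small GTPase of granule formation, to 0.48 for SLC18A1, a vesicular monoamine transporter. SCG5, a chaperone of prohormone convertase, had 0.48 over 10 regions, and CADPS, which primes vesicles for release, had 0.33 over 27. The 5 genes of phosphoinositide and cofilin partners (CFL1, PLCB1, ARF6, PIP5K1A and PIP5K1C) held 49 regions with a median of 0.092. With 4 tested regions and 1.02% called among all tested, the 0 calls (DESeq2) say little. At an unadjusted p under 0.05, 0 of the 49 were higher and 1 lower (2.04%), beside the same 3.58% and 0.179%. PLCB1, a phospholipase that cleaves membrane phosphoinositide, had 37 of these regions with a median of 0.097.

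The labelled cell type was checked on open regions near marker genes. Regions lay within 1 kb of either end of 6 of 8 melanocytic genes, among them MITF (168 normalized reads) and DCT (30.0), and of 5 of 5 genes of dedifferentiated melanoma, among them TNC (118). TYR and TYRP1 had none there. Of the 11 markers of other cell types, regions lay at the ends of CD3E (70.1), PTPRC (4.68) and the neuronal gene SYN1 (29.7), and at the ends of 0 of the 6 endothelial, epithelial and hepatic genes. At the planned reading, within 1 kb of a start in the start table, regions lay at 2 of the 5 melanocytic genes with a start there (MITF and DCT, with 0 regions at MLANA, TYR and TYRP1) and at 3 of 3 dedifferentiated genes. By that reading both neuronal genes were open, SYN1 (29.7) and RBFOX3 (11.4), while 0 of the 3 other genes with a start there (PTPRC, KRT5 and ALB) had a region. The starts thus do not set the cells apart as melanocytic rather than neuronal. An open region is not expression, and these markers were not measured as RNA.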

How the data were processed

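ATAC-seq was made from A375 cells, with 2 vehicle and 2 octanoate libraries grouped by sample title. The submitters' processing notes name Trim Galore, cutadapt, FastQC, Bowtie2, Picard, MACS2, featureCounts, DESeq2, bedtools 2.29.1 and the build hg38. Any shift for the Tn5 cut and how regions were merged are not given in the sources used here.

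Per the file headers, the authors' table has a signal column (the mean normalized read count), a log2 fold change with its standard error, a score (the Wald statistic) and deposited p-values, raw and adjusted. The score equalled the fold change over its error. The deposited adjusted p-value equalled Benjamini-Hochberg adjustment over 11185 regions, the lowest with a mean of 63.8. The other 114801 are listed at 1 and were treated as not tested. Depth per library is unknown, so no counting interval is given.

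Group levels were implied from the mean and the fold change, assuming 2 equally weighted libraries a group. Python 3.11.15, pandas 2.3.3 and scipy 1.17.1 were used, and adjustment and centring were tested on simulated data. Genes and starts are from RefSeq GRCh38.p14. Exons and introns were not used here. Of the markers, many starts were not in the start table, so either gene end was used. No genome was used, so the called region's sequence is not printed.

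Named were all tested PTPRN2 regions, those within 1 kb of either gene end, the 3 highest and 3 lowest others at or above the locus' median strength, distal 7q genes with at least 5 regions, called distal 7q regions, the 5 genes nearest in median, and list genes. The locus, the lists and the rule were chosen with earlier results of these data known. Alternatives varied margin, window, filter, weighting, centring and threshold.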

Additional observations from a re-analysis of the deposited data

How the results depend on the processing

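The PTPRN2 call (1 region) selected the locus, so its passing elsewhere is no independent support. Adjusted p limits of 0.1 or 0.01 and margins of 0 or 50 kb could not remove it, given its adjusted p of 0.000154 and its place inside the gene. It was also called with adjustment over all regions and on the tested median. It became 0 (DESeq2) when a doubling was also required, since its rise was 0.95, and 0 on the median of all nuclear regions, where 3 regions were at an unadjusted p under 0.05. The PTPRN2 median of 0.53 was 0.95 over tested regions, which is 1 region, 0.34 minus the tested median and 0.30 minus that of all nuclear regions. Leaving out 1 region at a time gave 0.53 to 0.54. The remaining distal 7q median of 0.47 was 0.41 over tested regions, 0.41 from 150 Mb, 0.41 by summed counts, 0.28 minus the tested median and 0.24 minus that of all nuclear regions. The difference of 0.060 was 0.54 over tested regions, 0.18 by weighted means and 0.18 by summed counts. Centring shifts values by construction, and the cause of the other moves was not tested. A move was judged by the 95% order-statistic interval of the medians over regions, which is not replicate spread. Centring on all nuclear regions, summed counts and leaving out regions were chosen after seeing the data. No paired analysis was possible because the values used here are not split by library, so leaving out a replicate, other scalings and count tests were not run. Of the 81 regions 80 were not tested, and what depth adds to this is unknown, since depth per library is not given.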
